A study of Mus musculus with 8 samples.

Results

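The Ikaros family is a group of 5 zinc finger transcription factor genes, Ikzf1 (Ikaros), Ikzf2 (Helios), Ikzf3 (Aiolos), Ikzf4 (Eos) and Ikzf5 (Pegasus). Its RNA was followed in CD8+ T cells from mouse spleen, with and without the ETS family transcription factor ELF4. The members were all probe sets that the array's annotation assigns to 1 of these genes and to no other gene, which gave 13 of 45037 probe sets, for 5 of 18193 named genes. The family was chosen because Ikzf2 differed by genotype in both cell states, so the genotype differences of Ikzf2 are given here as a description, with no test. The other 4 genes entered by family name.

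The proteins of this family bind DNA through zinc fingers near the amino terminus and pair with each other through further zinc fingers at the carboxy terminus. Ikaros, Helios and Aiolos recruit the NuRD chromatin remodelling and histone deacetylase complex, and act as repressors or activators depending on the gene. Ikaros is known for setting the threshold of T cell activation and for restraining Il2, Helios and Eos for their part in regulatory T cells, and Aiolos for the maturation of B cells.

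Each of 4 groups had 2 arrays, 8 in all. The wild-type groups came from C57BL/6 mice and the knockout groups from Elf4-/- mice, in which Elf4 was disrupted. Naive cells were taken untreated, and activated cells were cultured for 3.5 days on plates coated with anti-CD3, with anti-CD28 added, in RPMI with FBS and T-stim supplement. The age and sex of the mice, and whether replicates were separate animals or cultures, are not given in the sources used here, so the p-values cover the spread of these arrays alone, and that spread may be technical.

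Values are MAS5 intensities, a linear measure of hybridisation for each probe set, already scaled so that the 2% trimmed mean of each array was 500. Array medians lay between 63.9 and 86.0. Across probe sets, replicate arrays correlated at 0.94 to 0.965, arrays of the same state and the other genotype at 0.936 to 0.959, and arrays of different states at 0.799 to 0.831. The state moved together with Xist (60.3 to 172 on naive arrays, 7703 to 10011 on activated arrays), with the Y-linked gene Eif2s3y (2537 to 5146, and 2.93 to 44.0) and with the ratio of the 3' to the 5' signal of Actb, a measure of RNA integrity (1.96 to 2.50, and 5.90 to 11.1). A lys spike-in control also differed between the states (989 to 1654, and 62726 to 78734), and their array-file labels belong to different series. The labels of both naive wild-type samples name the same array file, although the deposited values of the 2 samples differ, so whether they are separate arrays rests on the titles. Activation, sex, array series, spike-in and RNA integrity therefore cannot be told apart in any difference between states. Elf4 itself was dim: the brighter of its probe sets gave 116 and 199 on the naive wild-type arrays, 165 and 192 on the naive knockout arrays, 83.6 and 134 on the activated wild-type arrays, and 76.2 and 80.6 on the activated knockout arrays. The dimmer one gave 32.4 and 9.37 in the wild type against 77.6 and 58.2 in the knockout before activation, and 112 and 58.5 against 1.92 and 26.1 after it. Neither passed by genotype (adjusted p = 0.892 and 0.814 for the brighter, 0.522 and 0.373 for the dimmer), and whether the probes lie in the deleted part was not analysed here, so it does not check the genotype labels.

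Each difference below is a difference of mean log2(intensity + 16), with an adjusted p taken over 27389 probe sets and a threshold of 0.05. Fold values are ratios of mean intensities, and values after ± are SDs of 2 arrays. Of the 13 family probe sets, 11 lay at or over the median of 2 or more of the 8 arrays and were fitted. These were both of Ikzf1, 2 of 3 of Ikzf2, all 3 of Ikzf3, 2 of 3 of Ikzf4 and both of Ikzf5. The remaining 2 were dim on every array. For each gene the brightest probe set is described first. Intensities of different probe sets are not set against each other, because probes differ in affinity. In a bulk sample, more RNA per cell and more cells that express a gene cannot be told apart.

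On its brightest probe set, Helios RNA was higher in knockout than in wild-type cells in both states. It was also higher there in activated than in naive cells in both genotypes. The Ikzf2 probe set 1437542_at read 319 and 334 in naive wild-type cells and 1216 and 1279 in naive knockout cells. It read 1570 and 1657 in activated wild-type cells and 3362 and 3005 in activated knockout cells. The 4 groups did not overlap, and they stood in the order activated knockout, activated wild type, naive knockout, naive wild type. Naive knockout cells thus lay between naive and activated wild-type cells. Arrays that do not overlap are common here: over all tested probe sets they made up 38.2% and 47% by genotype in naive and activated cells, and 68.7% and 71.4% by activation in wild-type and knockout cells.

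The mean Helios signal in naive cells was 327 ± 10.3 in the wild type and 1247 ± 44.9 in the knockout, a ratio of 3.82 (log2 1.88, 95% interval 1.53 to 2.24). In activated cells the means were 1614 ± 61.6 and 3184 ± 253, a ratio of 1.97 (log2 0.97, 95% interval 0.62 to 1.32). The genotype difference was therefore 0.91 smaller on the log2 scale after activation (SE 0.23). These values chose the gene and carry no test. Over all 27389 probe sets, 0.69% had a larger difference in naive cells and 7.04% in activated cells.

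A second Ikzf2 probe set, 1456956_at, gave weaker signals. It read 133 and 85.5 on the naive wild-type arrays, 130 and 182 on the naive knockout arrays, 223 and 209 on the activated wild-type arrays, and 282 and 227 on the activated knockout arrays. The naive genotypes overlapped, and the differences of knockout minus wild type were 0.47 in naive cells (95% interval -0.26 to 1.20) and 0.22 in activated cells (95% interval -0.51 to 0.95). On the threshold that chose the gene, 1437542_at lay inside in both comparisons, close to the edge in activated cells. The probe set 1456956_at lay outside in both. This describes the selection and is no test. The third probe set, 1421643_at, was under the array's median on all 8 arrays. Its readings were 2.87 and 14.3 on the naive wild-type arrays, 68.9 and 42.0 on the naive knockout arrays, 5.73 and 8.79 on the activated wild-type arrays, and 3.48 and 15.3 on the activated knockout arrays.

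On activation, Helios rose in both genotypes on its brightest probe set, a comparison that shares its arrays with those that chose the gene. In wild-type cells 1437542_at rose 4.94-fold (log2 2.25, SE 0.16, adjusted p = 1.6e-06). In knockout cells it rose 2.55-fold from its higher starting level (log2 1.34, SE 0.16, adjusted p = 5.95e-05). The weaker probe set 1456956_at rose in wild-type cells (0.91, SE 0.33, adjusted p = 0.0487), a call kept in 8 of 20 alternative analyses, and gave 0.66 in knockout cells (adjusted p = 0.136). The third, 1421643_at, too dim for the main fit, did not rise. Its mean went from 8.61 to 7.26 in wild-type cells and from 55.4 to 9.39 in knockout cells. In the alternative with no filter, the fall in knockout cells passed with limma (adjusted p = 0.0386).

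**Figure D1:**
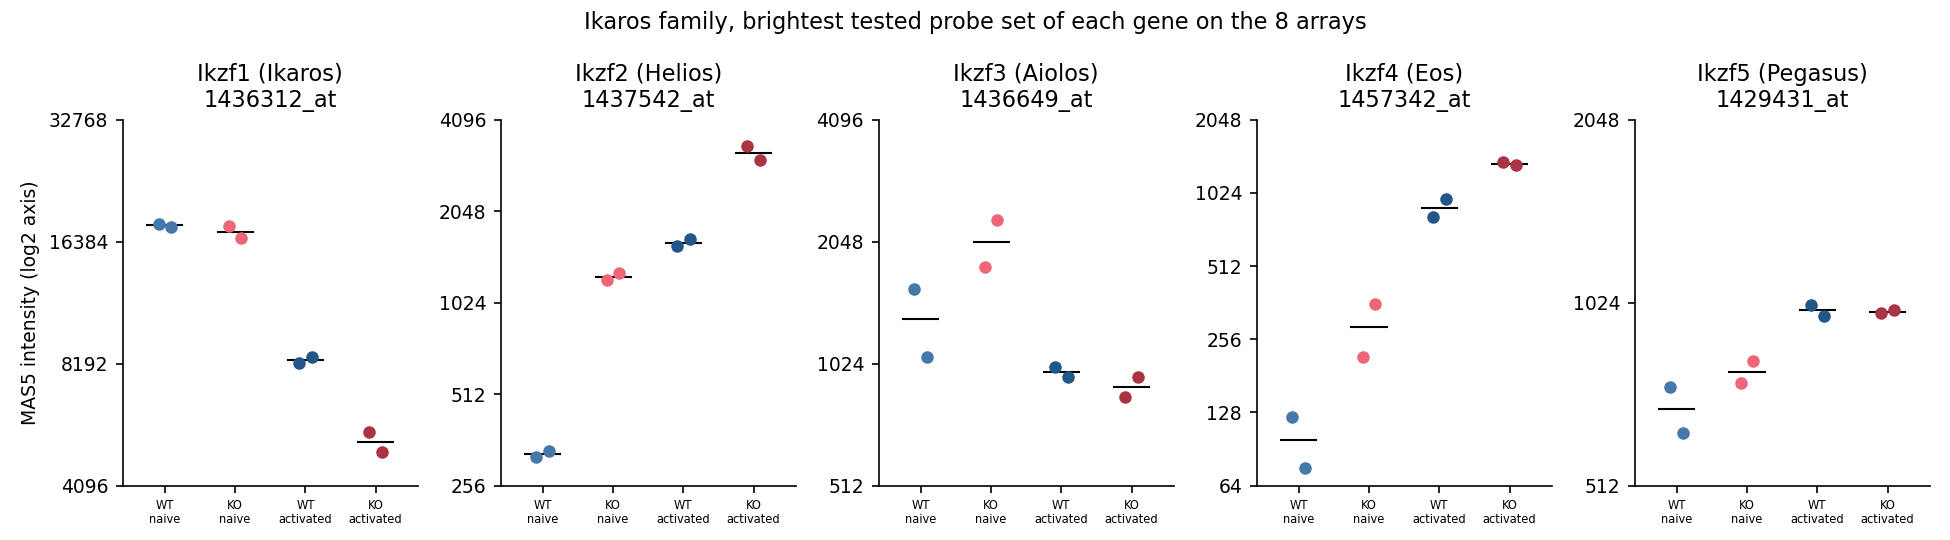
MAS5 intensity (log2 axis, a different range in each panel) of the brightest tested probe set of each family member, with 1 point per array, a bar at the mean of the 2 arrays, WT for wild type and KO for Elf4 knockout. Ikzf2 steps up from naive wild type at 327 to activated knockout at 3184, Ikzf4 follows the same order of groups, and Ikzf1 is lowest in activated knockout cells at 5251.

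Eos was the member whose groups stood in the same order as those of Helios, on both of its tested probe sets. The Ikzf4 probe set 1457342_at read 122 and 75.5 on the naive wild-type arrays, 216 and 356 on the naive knockout arrays, 812 and 968 on the activated wild-type arrays, and 1370 and 1331 on the activated knockout arrays. For the probe set 1438274_at the naive readings were 120 and 23.3 in the wild type against 169 and 233 in the knockout, and the activated ones 946 and 707 against 1050 and 994. No group overlapped its neighbour in either probe set. By genotype, 38.2% of all tested probe sets did not overlap in naive cells and 47% in activated cells. The third, 1460664_at, was under the array's median on all 8 arrays, between 5.72 and 16.3.

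Eos was higher in activated than in naive cells on both tested probe sets in both genotypes. In wild-type cells the rise was 9.0-fold on 1457342_at (98.9 ± 33.0 to 890 ± 110, log2 3.004, SE 0.29, adjusted p = 1.42e-05) and 11.5-fold on 1438274_at (log2 3.51, SE 0.47, adjusted p = 0.000144). In knockout cells it was 4.72-fold (286 ± 99.5 to 1350 ± 27.7, log2 2.22, SE 0.29, adjusted p = 0.000113) and 5.09-fold (log2 2.27, SE 0.47, adjusted p = 0.00251). The difference of these effects between the genotypes did not pass (-0.79, adjusted p = 0.58, and -1.24, adjusted p = 0.59).

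The genotype difference of Eos in naive cells did not pass the threshold. Both probe sets were higher on both knockout arrays, in a comparison where 38.2% of all tested probe sets did not overlap. The ratio was 2.89 on 1457342_at (log2 1.39, SE 0.29, 95% interval 0.75 to 2.02, unadjusted p = 0.000618, adjusted p = 0.0752) and 2.80 on 1438274_at (log2 1.55, SE 0.47, adjusted p = 0.214). This outcome depended on single arrays. Without wild-type naive replicate 1 the first probe set gave 1.68 (adjusted p = 0.0429), and without knockout naive replicate 1 it gave 1.73 (adjusted p = 0.0422). Without wild-type naive replicate 2 it gave 1.09 (adjusted p = 0.156), and without knockout naive replicate 2 it gave 1.04 (adjusted p = 0.322). Its adjusted p ranged from 0.0422 to 0.564 over 20 alternatives. In activated cells the differences were 0.60 (95% interval -0.04 to 1.24, adjusted p = 0.509) and 0.32 (95% interval -0.72 to 1.35, adjusted p = 0.879).

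Ikaros RNA fell on activation in both genotypes. The Ikzf1 probe set 1436312_at read 18118 and 17830 on the naive wild-type arrays, 17935 and 16710 on the naive knockout arrays, 8221 and 8513 on the activated wild-type arrays, and 5547 and 4955 on the activated knockout arrays. The naive genotypes overlapped, while the activated knockout arrays lay under the activated wild-type arrays, where 47% of all tested probe sets did not overlap. The fall was 2.15-fold in wild-type cells (17974 ± 203 to 8367 ± 207, log2 -1.10, SE 0.11, adjusted p = 2.01e-05) and 3.30-fold in knockout cells (17322 ± 866 to 5251 ± 418, log2 -1.72, SE 0.11, adjusted p = 7.77e-07). The dimmer probe set 1421303_at, at 125 to 226 in naive cells and 9.56 to 77.7 in activated cells, fell too (-2.24, adjusted p = 0.0201 in the wild type, and -2.00, adjusted p = 0.0321 in the knockout), calls kept in 14 of 19 and 11 of 19 alternatives.

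In activated cells Ikaros was 1.59-fold lower in the knockout (log2 -0.67, SE 0.11, 95% interval -0.92 to -0.43, adjusted p = 0.0462). It was the only tested family probe set outside Ikzf2 that passed by genotype in either state. The call lay close to the threshold: it kept its direction in 20 of 20 alternatives, from -0.75 to -0.52, and passed in 10, with adjusted p from 0.0103 to 0.828. Leaving out any 1 of the 4 activated arrays ended it, at 0.359 and 0.339 without wild-type replicates 1 and 2, and at 0.207 and 0.368 without knockout replicates 1 and 2. Centring each array on its median also ended it (adjusted p = 0.128). The Actb ratio, a measure of RNA integrity, was 5.98 and 5.90 on the activated wild-type and 7.44 and 11.1 on the activated knockout arrays. With its log2 as a covariate the difference was -0.52 (adjusted p = 0.828), and its part in the result was not otherwise tested. In naive cells the Ikaros genotypes differed by -0.05 (95% interval -0.30 to 0.19, adjusted p = 0.904), a value whose sign turned under quantile normalization and median centring. The change in the genotype difference between states was -0.62 (SE 0.16, unadjusted p = 0.00253, adjusted p = 0.215) and did not pass.

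RefSeq's promoter table for the build GRCm38.p6 held 2 start sites of Ikzf1 and 1 of Ikzf5, and 0 of Ikzf2, Ikzf3 and Ikzf4. The windows of Ikzf1, the member with a tested genotype difference, are shown because ELF4 is an ETS factor and the common core of ETS sites is GGAA, which is also held in GGGAA, the core of Ikaros family sites. Each covers 300 bases of the plus strand of chromosome 11, and capitals mark GGAA or its reverse complement TTCC.
Ikzf1, chr11:11685675-11685974: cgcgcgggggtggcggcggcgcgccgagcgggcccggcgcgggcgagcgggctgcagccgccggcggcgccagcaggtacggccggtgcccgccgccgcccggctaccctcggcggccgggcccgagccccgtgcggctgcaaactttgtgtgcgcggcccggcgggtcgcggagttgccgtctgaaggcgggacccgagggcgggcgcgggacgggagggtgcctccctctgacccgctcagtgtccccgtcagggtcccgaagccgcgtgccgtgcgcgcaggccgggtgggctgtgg
Ikzf1, chr11:11689927-11690226: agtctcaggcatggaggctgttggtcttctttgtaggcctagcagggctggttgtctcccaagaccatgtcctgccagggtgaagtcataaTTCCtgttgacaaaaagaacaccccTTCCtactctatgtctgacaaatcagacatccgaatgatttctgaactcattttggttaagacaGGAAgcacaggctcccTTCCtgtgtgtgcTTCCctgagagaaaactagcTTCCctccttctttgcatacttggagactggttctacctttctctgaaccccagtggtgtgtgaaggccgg
The first window had 81.3% G and C and 0 matches to GGAA on either strand. The second had 49% G and C and 6 matches to GGAA, 2 of which were within GGGAA, and 0 to the longer GGAAGT. Among 32851 promoter windows of the same length, 96% held GGAA, 62.7% held GGGAA and 23.8% held GGAAGT on either strand. The median number of matches to GGAA in a window was 3. The matches describe the sequence only, and binding was not measured.

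Aiolos had genotype differences of opposite sign in the 2 states, neither of which passed. The Ikzf3 probe set 1436649_at read 1567 and 1065 on the naive wild-type arrays, 1776 and 2309 on the naive knockout arrays, 1006 and 951 on the activated wild-type arrays, and 846 and 947 on the activated knockout arrays. Both knockout arrays were above the wild type in naive cells and below it in activated cells. Of all tested probe sets, 38.2% and 47% did not overlap in these comparisons. The differences were 0.64 in naive cells (SE 0.21, unadjusted p = 0.0124, adjusted p = 0.261) and -0.13 in activated cells (SE 0.21, adjusted p = 0.898), and their change between states did not pass (-0.77, adjusted p = 0.439). The naive difference was 0.92 and 0.37 without wild-type naive replicates 1 and 2, and 0.83 and 0.45 without knockout naive replicates 1 and 2, and it passed in none of these. Aiolos fell on activation in knockout cells, by 2.28-fold (2043 ± 377 to 896 ± 71.6, log2 -1.16, SE 0.21, adjusted p = 0.00122). In wild-type cells the change was -0.40 (1316 ± 355 to 978 ± 38.6, adjusted p = 0.172), which was -0.67 (adjusted p = 0.0314) without wild-type naive replicate 2 and -0.12 (adjusted p = 0.691) without wild-type naive replicate 1. The other probe sets, 1441088_at at 119 to 257 and 1453378_at at 23.0 to 92.3, did not pass in any comparison.

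Pegasus, the most diverged member in sequence, passed in 1 comparison. The Ikzf5 probe set 1429431_at read 745 and 624 on the naive wild-type arrays, 755 and 821 on the naive knockout arrays, 1015 and 973 on the activated wild-type arrays, and 983 and 996 on the activated knockout arrays. The activated arrays were all above the naive ones, and the activated genotypes overlapped. Between the states, 68.7% of all tested probe sets did not overlap in wild-type and 71.4% in knockout cells. It rose 1.45-fold on activation in wild-type cells (685 ± 85.3 to 994 ± 29.7, log2 0.53, SE 0.18, adjusted p = 0.0361), a call kept in 11 of 20 alternatives. It was lost without any of wild-type naive replicate 2, the activated wild-type replicates and the activated knockout replicates (adjusted p from 0.0631 to 0.157). In knockout cells the change was 0.32 (adjusted p = 0.177). By genotype it gave 0.20 in naive cells (95% interval -0.19 to 0.60, adjusted p = 0.728) and -0.01 in activated cells (95% interval -0.40 to 0.39, adjusted p = 0.996), the latter with a sign that turned under quantile normalization and median centring. The probe set 1436554_at, at 393 to 595 on all arrays, passed in no comparison.

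**Figure D2:**
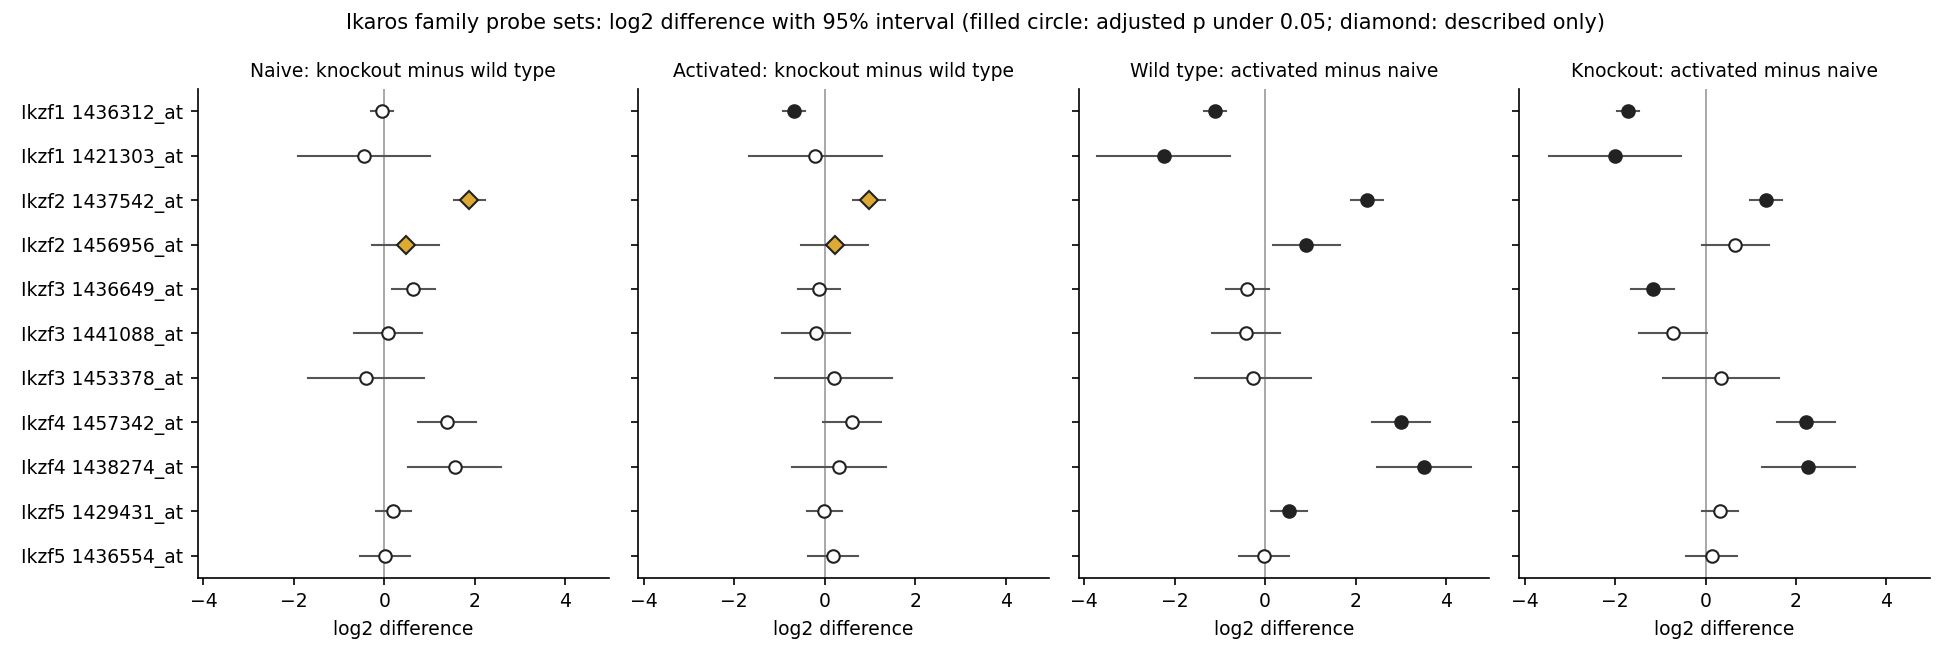
Difference in log2(intensity + 16) with its 95% interval for the 11 tested family probe sets in 4 comparisons. Filled circles had an adjusted p under 0.05, open circles did not, and diamonds mark the genotype differences of Ikzf2, which are described only. In the genotype panels the 1 filled circle is Ikzf1 1436312_at in activated cells at -0.67, and in the activation panels Ikzf2 and Ikzf4 lie to the right and Ikzf1 to the left.

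Counted over the family, more probe sets passed between the states than between the genotypes, as over the whole array. In wild-type cells 7 of 11 family probe sets passed, 5 higher and 2 lower in activated cells, where 39.1% of all tested probe sets passed, 17.4% higher and 21.8% lower. With each array centred on its median, 5448 of all probe sets were higher and 4424 lower, against 4756 and 5958 here. In knockout cells 6 of 11 family probe sets passed, 3 higher and 3 lower, where 41.6% of all passed, 18.2% higher and 23.4% lower. Of the 9 tested probe sets outside Ikzf2, 0 passed by genotype in naive cells with limma, where 0.562% of all passed. In that comparison 3 of the 9 had an unadjusted p under 0.05, as did 3315 of all 27389 probe sets. In activated cells 1 of the 9 passed, as lower, where 0.215% of all passed and 0.102% were lower. The change of the genotype difference between states passed for 0 of the 9, where 0.0584% of all passed. Its unadjusted p was under 0.05 for 2 of the 9 and for 2666 of all 27389 probe sets. The 3 in naive cells were both Ikzf4 probe sets and Ikzf3 1436649_at, all higher in the knockout. Over the 9 probe sets outside Ikzf2, the median genotype difference was 0.09 in naive and -0.01 in activated cells, beside -0.00 and -0.02 over all probe sets. Over all 11 family probe sets, the median activation difference was -0.03 in wild-type and 0.32 in knockout cells, beside -0.16 and -0.16.

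Every activation call of the family was lost when the log2 of the Actb ratio, which differs between the states throughout, was added as a covariate. The counts were then 0 of 11 in each genotype, beside 484 and 0 calls over all probe sets. Helios gave 2.54 (adjusted p = 0.0583) in wild-type and 1.81 (adjusted p = 0.552) in knockout cells in that fit.

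**Figure D3:**
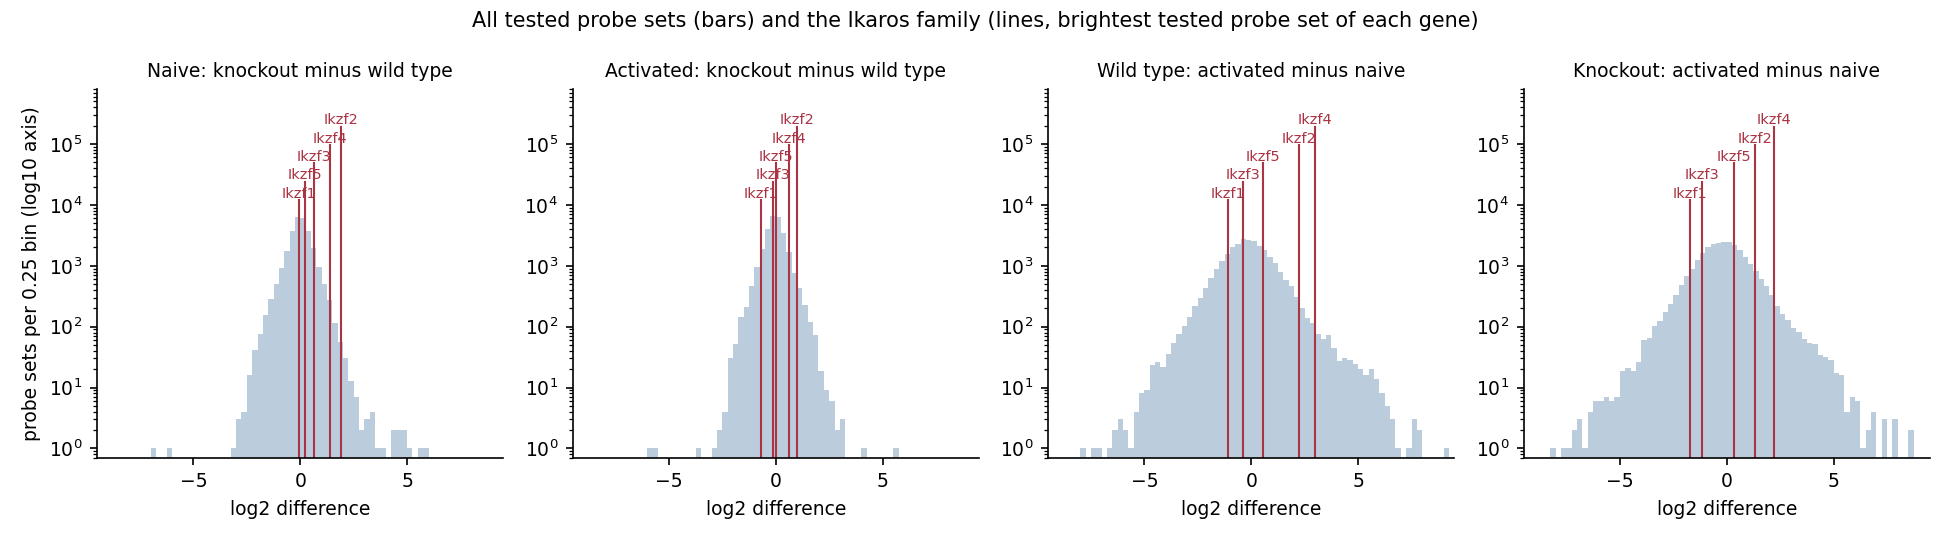
Number of tested probe sets (log10 axis) per bin of log2 difference in 4 comparisons, with a line at the brightest tested probe set of each family member (line heights carry no value). In naive cells Ikzf2 at 1.88 and Ikzf4 at 1.39 lie in the right flank, and in wild-type activation Ikzf4 at 3.004 lies farthest out among the members.

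Genes whose pattern over the 8 arrays was most like that of each member were found by Pearson's r among 8782 genes whose group means ranged over at least 1 on the log2 scale. The arrays fall into 4 groups, so r mostly follows the group means and is a description. The 5 nearest to Ikzf2 were Lrrc75a (r = 0.993), Fndc3b (0.986), Plin2 (0.986), Tmcc2 (0.985) and Slc11a2 (0.982). Of these, Plin2, which coats lipid droplets, read 255 and 263 on the naive wild-type arrays, 623 and 767 on the naive knockout arrays, 848 and 688 on the activated wild-type arrays, and 1170 and 1316 on the activated knockout arrays. Fndc3b, which encodes a membrane protein with fibronectin type III domains, ran from 176 and 218 in naive wild-type to 736 and 656 in activated knockout cells. Both repeat the order of the Helios groups, though the naive knockout and activated wild-type arrays of each overlap. The other 3 were dim, with no reading above 129. The 2 nearest to Ikzf4 were the SUMO protease gene Senp5 (0.997) and Bivm (0.995), to Ikzf1 Mndal (0.998) and the Hippo pathway kinase gene Stk4 (0.998), to Ikzf3 Hpgd, a prostaglandin-degrading enzyme (0.997), and Mfsd1 (0.982), and to Ikzf5 the inositol phosphate kinase gene Ippk (0.995) and Anapc4, a subunit of the anaphase-promoting complex (0.993).

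The genes beside Ikzf2 on chromosome 1 were read in the same comparisons. Among the 10 tested named genes on each side, 0 of 20 passed with limma in naive cells and 0 of 20 in activated cells. Over all 12838 named genes 0.467% were higher and 0.358% lower in naive knockout cells, and 0.125% and 0.164% in activated knockout cells. The medians of the neighbours were 0.15 in both, and their ranges were -1.04 to 1.52 and -1.21 to 0.87. The 1.52 was that of Fn1, the fibronectin gene (adjusted p = 0.436). Around Ikzf1 on chromosome 11, 2 of 20 passed in naive cells, Plek, a substrate of protein kinase C (1.16, adjusted p = 0.0254), and Tbrg4 (-0.66, adjusted p = 0.0493), and 0 of 20 passed in activated cells. Around Ikzf3, Ikzf4 and Ikzf5, 0 of 20 passed by genotype in each state.

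**Figure D4:**
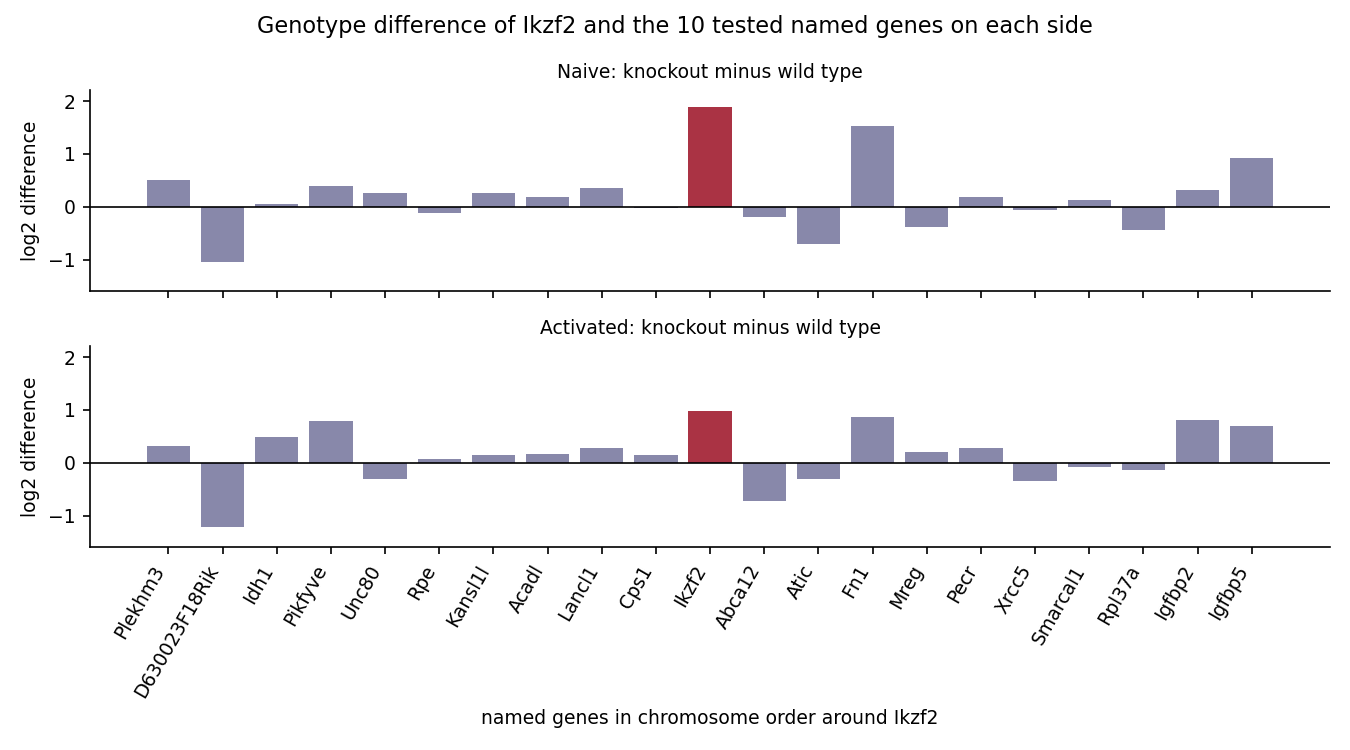
Knockout minus wild-type difference in log2(intensity + 16) of Ikzf2 (dark red) and of the 10 tested named genes on each side, in chromosome order, in naive (top) and activated cells (bottom). Ikzf2 stands at 1.88 and 0.97, and the neighbours lie between -1.04 and 1.52 and between -1.21 and 0.87.

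Partners of the family were described by counts, with 1 probe set per gene. None of the 13 NuRD subunits, 10 measured other corepressor and remodeller genes, and 5 genes of the cereblon ubiquitin ligase, the target of drugs that degrade Ikaros and Aiolos, passed by genotype with limma in naive or activated cells. Of all genes, 0.467% were higher and 0.358% lower in naive knockout cells, and 0.125% and 0.164% in activated knockout cells. Between the states many of the listed genes passed, beside 21% of all genes higher and 23.8% lower in wild-type cells and 21.7% and 25.9% in knockout cells. Of the NuRD genes 4 rose and 4 fell in each genotype. The subunits Mta3 (-2.21 in wild-type and -2.71 in knockout cells, adjusted p = 2.62e-06 and 5.72e-07) and Chd3, an ATPase of the complex (-2.00 and -2.62, adjusted p = 9.43e-05 and 1.21e-05), fell, and the histone chaperone Rbbp7 rose (0.93 and 1.25, adjusted p = 6.04e-05 and 6.57e-06). The list median was -0.10 and 0.01, beside -0.12 and -0.11 over all genes.

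Of the other corepressors and remodellers 5 rose and 2 fell in each genotype, with medians of 1.002 and 0.69. The risers included the Polycomb subunits Ezh2 (4.11 and 3.44, adjusted p = 3.89e-08 and 8.37e-08), Suz12 (1.55 and 2.09, adjusted p = 1.07e-05 and 1.23e-06) and Eed (1.23 and 1.50, adjusted p = 6.4e-05 and 1.35e-05), and Sap30, a subunit of the Sin3 complex (1.88 and 2.33, adjusted p = 3.54e-05 and 6.66e-06). Ezh2, the Polycomb histone H3 methyltransferase, lay between 683 and 1423 before activation and between 12994 and 14217 after it. In the cereblon ligase 3 of 5 genes rose in each genotype, the adaptor Ddb1 (1.01 and 0.99, adjusted p = 0.000436 and 0.000437) and the cullins Cul4a (0.82 and 1.22) and Cul4b (0.87 and 0.45). Crbn, the substrate receptor, gave -0.32 and -0.43 (adjusted p = 0.18 and 0.0756).

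Genes that the literature links to control by this family did not pass by genotype either, 0 of 22 tested of 26 measured in each state with limma. Few genes passed by genotype at all, 0.467% higher and 0.358% lower in naive cells, and 0.125% and 0.164% in activated cells. The largest difference in activated cells, that of Dntt, the terminal transferase, was 2.58 (adjusted p = 0.0737), and Il2, the interleukin that Ikaros restrains, gave 1.19 (475 and 413 in the wild type, 1080 and 984 in the knockout, adjusted p = 0.298). On activation 10 rose and 7 fell in wild-type cells and 9 rose and 6 fell in knockout cells, with medians of 0.46 and -0.20. Over all genes 21% rose and 23.8% fell in wild-type cells, and 21.7% and 25.9% in knockout cells, with medians of -0.12 and -0.11. Il2ra, the high-affinity interleukin 2 receptor chain, rose by 7.84 and 7.47 (adjusted p = 3.58e-09 and 6.46e-09), and Cdkn1a, a cell cycle inhibitor, by 7.32 and 8.75 (adjusted p = 3.01e-08 and 9.24e-09). Dtx1, a regulator of Notch signalling, changed by -5.33 and -4.84 (adjusted p = 2.63e-08 and 2.87e-08).

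Helios and Eos are also known from other lymphocytes, so markers of the cells that a spleen preparation may hold were read beside them. Cd8a, which encodes a chain of the CD8 co-receptor, was bright throughout, with readings of 17150 and 16424 on the naive wild-type arrays, 14240 and 14897 on the naive knockout arrays, 6290 and 5421 on the activated wild-type arrays, and 4288 and 4397 on the activated knockout arrays. All 7 measured CD8 T cell markers fell on activation in each genotype, as did 23.8% of all genes in wild-type and 25.9% in knockout cells. By genotype 0 of the 7 passed with limma. Over all genes 0.467% were higher and 0.358% lower in naive knockout cells, and 0.125% and 0.164% in activated ones. The summed CD8 marker signal was lower in the knockout in both states. Naive wild-type cells had 94940 to 102820 and naive knockout cells 81100 to 85883. The activated groups had 30767 to 32237 and 25455 to 27660. Differences above 0 were found for 2 of 7 in naive and 1 of 7 in activated cells, with medians of -0.20 and -0.33. Cd4, which defines helper T cells, was under the array's median on all 8 arrays, at 18.0 to 43.1. Foxp3, which defines regulatory T cells, reached the median on 1 of 8, at 69.6 and 98.7 on the naive wild-type arrays, 37.5 and 66.5 on the naive knockout arrays, 23.6 and 51.6 on the activated wild-type arrays, and 16.2 and 14.8 on the activated knockout arrays. Foxp3 was too dim to be fitted, and its relation to Helios and Eos was not tested. The summed signal of 12 CD4 and regulatory T cell markers was 5767 to 6980 in naive wild-type and 6631 to 6699 in naive knockout cells, and 32740 to 33244 and 37371 to 38617 in the activated groups, where Il2ra and Ctla4, which activated CD8+ T cells also express, rose. Of the 10 tested, 4 had a naive genotype difference above 0, with a median of -0.21 beside 0.02 over all genes. Gpr83, an orphan receptor of regulatory T cells, was the 1 that passed there (2.10, adjusted p = 0.0493). It was higher in naive knockout cells, as were 0.467% of all genes.

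Markers of granulocytes moved with the naive genotype difference. Their summed signal over 8 genes was 405 to 688 in naive wild-type and 4647 to 19478 in naive knockout cells, and 4 of 8 rose in the knockout, Ngp (4.36, adjusted p = 0.0132), S100a8 (4.60, adjusted p = 0.0136), S100a9 (4.83, adjusted p = 0.017) and Lcn2 (4.61, adjusted p = 0.039). S100a8, a calprotectin subunit, read 1354 and 6941 on the naive knockout arrays, on which Ikzf2 read 1216 and 1279. In activated cells the sum was 257 to 385 in the wild type and 192 to 224 in the knockout, the state in which Ikzf2 was 1.97 times as high in the knockout. Among 9 tested NK and innate-like markers 1 rose in naive knockout cells, the receptor gene Klra8 (2.60, adjusted p = 0.0493), and 7 of the 9 had a difference above 0, with a median of 0.80 beside 0.02 over all genes. Klrc1 gave 1.30 (adjusted p = 0.0733), Tyrobp 1.18 (adjusted p = 0.328) and Eomes 0.91 (adjusted p = 0.14). Those below 0 were Zbtb16 (-0.79, adjusted p = 0.709) and Klrd1 (-0.16, adjusted p = 0.757). In activated cells 5 of the 9 were above 0, with a median of 0.21 beside -0.01 over all genes. There Klrc1 gave -1.21 (adjusted p = 0.118), and the list summed to 8543 to 9161 in the wild type and 5244 to 5477 in the knockout. The summed signal of that list (17954 to 23280 in naive wild-type and 20816 to 21901 in naive knockout cells) was mostly that of Klrd1, at 15514 to 20272 on the naive arrays. The sum of 6 macrophage and monocyte markers was 1791 to 2210 in naive wild-type and 3290 to 5432 in naive knockout cells, and 0 of 4 tested passed with limma. That of 5 dendritic cell markers was 287 to 593 and 669 to 729, and that of 2 gamma delta T cell markers was 241 to 350 and 387 to 773. Nearly all of the gamma delta sum was Blk, with 342 and 218 on the wild-type and 379 and 756 on the knockout arrays. Blk did not pass (0.93, adjusted p = 0.647), and the other marker, Sox13, was too dim to be tested. B cell markers summed to 28074 to 30546 in naive wild-type and 22680 to 29781 in naive knockout cells. In activated cells they summed to 4482 to 4874 in the wild type and 5788 to 6859 in the knockout. Most of the naive sum was Ighm, with 25469 and 23957 on the wild-type arrays against 18632 and 18897 on those of the knockout. Of the 9 tested B cell markers 6 had a naive difference above 0, with a median of 0.52, among them Cd22 (1.06, adjusted p = 0.49), and 0 passed by genotype with limma. The share of all genes that passed in naive knockout cells was 0.467% higher and 0.358% lower. With activation, 8 of 9 B cell markers fell in wild-type and 7 of 9 in knockout cells, where 23.8% and 25.9% of all genes fell. The part of these other cells in the family's differences was not tested.

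**Figure D5:**
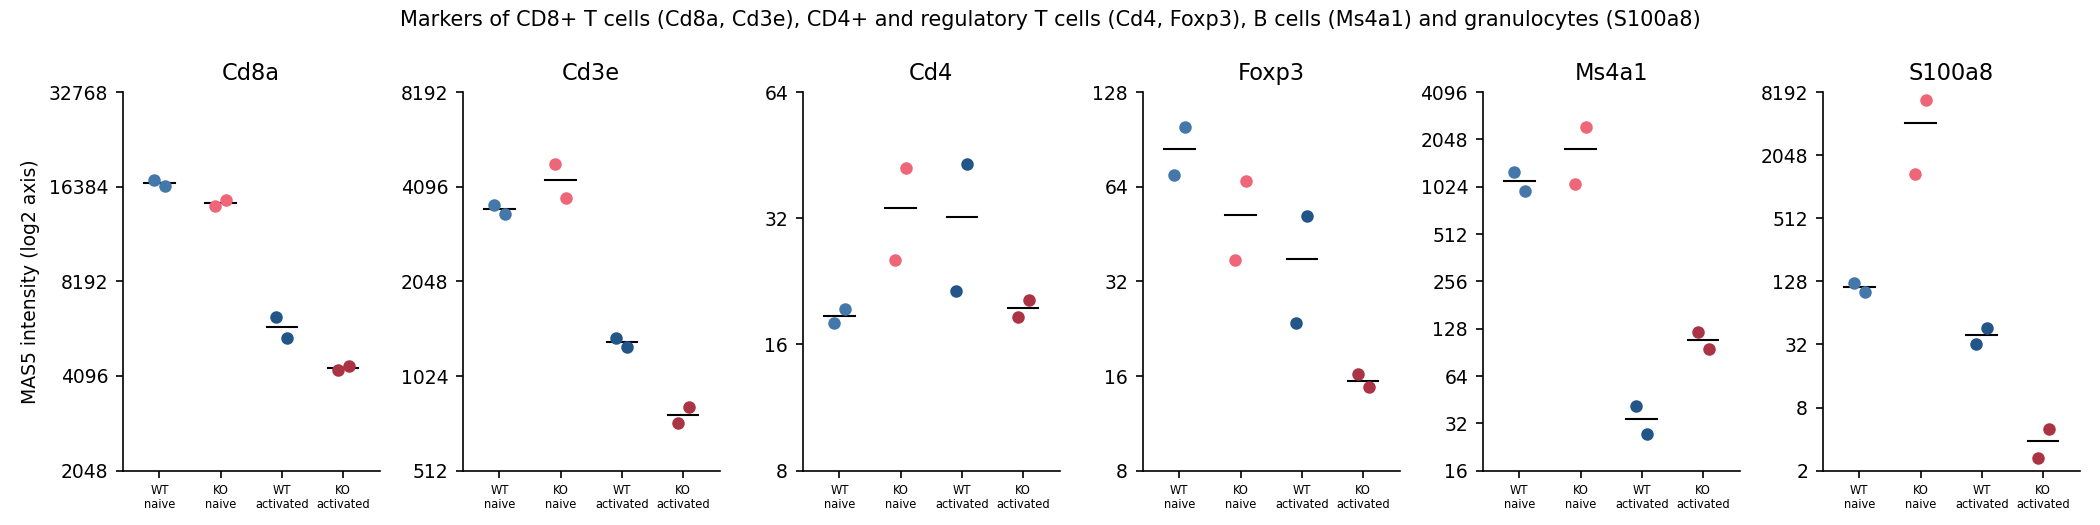
MAS5 intensity (log2 axis, a different range in each panel) of 6 marker genes, with 1 point per array and a bar at the mean of the 2 arrays. Cd4 stays between 18.0 and 43.1 and Foxp3 between 14.8 and 98.7 on all arrays, while S100a8 reads 1354 and 6941 in naive knockout cells.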

How the data were processed

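RNA from 8 samples of mouse CD8+ T cells was hybridised to Affymetrix arrays. The authors deposited a linear intensity for every probe set on every array, made by MAS5 per the submitters' processing notes, with no version named there. The table held 45101 probe sets, with 64 controls left out here, and 0 missing values. Of all probe sets 34945 had 1 gene symbol in the platform's annotation, 932 several and 9224 none. Symbols were updated through Entrez identifiers (34741 matched and 204 kept as they were). Groups and replicate numbers came from the sample titles.

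Intensities were taken as log2(intensity + 16), which understates the change of dim genes. Probe sets that reached the median of 2 or more of the 8 arrays were tested, 27389 in all for 12838 named genes. A model of 4 group means was fitted in R 4.3.3 with limma 3.58.1 (lmFit, eBayes with a trend, 4 residual and 6.7 prior degrees of freedom). Tests were two-sided, with Benjamini-Hochberg adjustment over all tested probe sets of a comparison. The number of arrays limits the precision. On simulated data of 27389 probe sets, the naive genotype comparison recovered 16 of 100 changes of log2 1 and 38 of 100 of log2 2, with 1 false call, and the activated one 8 and 48, with 1 false call.

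The members and lists were chosen with earlier results of these data known. Every member probe set is accounted for. Named besides were the 5 genes most like Ikzf2 and the 2 most like each other member by Pearson's r, chromosomal neighbours past the threshold, and at most 4 members of a list past the threshold in a comparison, smallest p first. Genes named with values that did not pass, such as Fn1, Crbn, Dntt, Il2, Klrc1, Tyrobp, Eomes, Cd22, Cd4 and Foxp3, were chosen after their values were seen. Gene order along chromosomes and promoter sequences came from RefSeq tables.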

Additional observations from a re-analysis of the deposited data

Results flagged for a closer look

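The third Ikzf2 probe set, 1421643_at, was left out of the tests because it lay under the array's median on all 8 arrays. Its mean was 55.4 in naive knockout and 8.61 in naive wild-type cells, and both knockout arrays (68.9 and 42.0) lay above both wild-type arrays (2.87 and 14.3). In activated cells the means were 9.39 and 7.26. The naive difference is given as a value only, since the genotype difference of Ikzf2 chose the family.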

How the results depend on the processing

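The differences of each member's brightest probe set and the counts were recomputed under 20 alternatives, and those of 2 dimmer probe sets, 1421303_at and 1453378_at, under 19, since the stricter filter left them out. The naive genotype difference of Ikzf2 was 1.75 with an offset of 64, 1.99 with each array centred on its median, and 1.85 to 1.92 with 1 array left out. The activated one was 1.10 with the Actb ratio as a covariate and 0.89 to 1.05 with 1 array left out. With that covariate the activation rise of Ikzf2 was 2.54 in wild-type and 1.81 in knockout cells and no longer passed, and the family counts of activation calls, 7 and 6, became 0 and 0. These counts ranged from 4 to 7 (4 without wild-type activated replicate 2) and from 5 to 6 with 1 array left out. The count outside Ikzf2 in naive cells, 0, ranged from 0 to 2, with 2 without wild-type naive replicate 1 and 1 without knockout naive replicate 1. The count in activated cells, 1, was 0 with no offset, median centring, no filter, no trend, the replicate block or the Actb covariate, and 0 to 1 with 1 array left out. Ikzf1 by genotype in naive cells was 0.13 with quantile normalization and 0.0502 with median centring. Ikzf5 by genotype in activated cells was 0.011 with quantile normalization, 0.028 with median centring, 0.069 with the covariate, and -0.0363 to 0.024 with 1 array left out (0.024 without wild-type activated replicate 1, 0.0032 without knockout activated replicate 1). The causes of these changes were not tested.

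Differences between replicates of the same number correlated at -0.167 across the naive and 0.0231 across the activated genotypes, and at 0.0684 and -0.035 across the states, so the numbers were not taken as pairs. With the replicate block, Ikzf1 in activated cells (-0.67, adjusted p = 0.0994) and Ikzf5 in wild-type activation (0.53, adjusted p = 0.0526) lost their calls, and over all probe sets the genotype calls went from 154 to 108 in naive and from 59 to 26 in activated cells. A crossed block for the naive knockout arrays, chosen after seeing the data, gave 167 calls in naive cells and 0 in the family outside Ikzf2. Median centring moved the median of all probe sets from -0.00 to 0.10 in naive cells and from -0.16 to 0.03 in wild-type activation, and quantile normalization moved the latter to -0.02. Where leaving out an array left 1 in a group, its spread was taken from the other groups.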
